A study of Mus musculus with 9 samples.

Results

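Interferon-stimulated genes and the genes of MHC class I antigen presentation were followed in cultured mouse astrocytes after a pulse of hydrogen peroxide. The set holds 41 of the 25239 genes in the authors' deposited table, picked by symbol as interferon-stimulated, immunoproteasome and class I pathway genes, and all 41 were found there. Astrocytes, the glial cells that support neurons and respond to injury, were grown from the cerebral cortex of mouse pups at postnatal day 4 in medium with horse and fetal bovine serum. In the day 1 group (3 libraries), cells received 200 µM hydrogen peroxide for 3 h, were washed, and were harvested 24 h later. In the day 3 group (3 libraries) the same exposure was followed by 72 h in culture, and the control group (3 libraries) was untreated, with no harvest time in the labels. The labels name no strain and no genetic change, and the title of the series links peroxide, astrocytic collagen and neuronal death in stroke; no interferon or virus was added to any group.

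Type I interferons bind a receptor pair, IFNAR1 and IFNAR2, whose kinases activate STAT2. With IRF9 it forms part of a complex that binds the interferon-stimulated response element (ISRE) in the promoters of antiviral genes. Interferon gamma acts mainly at a different site, GAS, and raises GTPases, immunoproteasome subunits and class I genes. Class I presentation starts with peptides cut by the proteasome, which the TAP transporter carries into the endoplasmic reticulum, where tapasin helps to load them on a heavy chain paired with beta-2-microglobulin. Astrocytes and microglia both run these programs in the brain.

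Levels are FPKM as deposited, that is, fragment numbers divided by the length of the gene and the size of the library, given per library or as mean ± SD (n = 3). The 9 libraries held 23032594 to 38414668 reads as worked out from the FPKM, so that 1 FPKM of a gene of 2 kb stood for 46.1 to 76.8 reads. Fold changes were fitted by limma on log2(FPKM + 0.1) of rescaled libraries, a scale that shrinks the changes of low genes, and brackets hold 95% intervals. Genes averaging at least 1 FPKM were tested (12611), and the threshold for a call was an adjusted p of 0.05 (Benjamini-Hochberg, over all tested genes). The labels do not tie replicates to separate cultures, so each p-value reflects how much these libraries vary, and that spread may be technical. Astrocyte markers were high in every library. Gfap, the astrocyte intermediate filament, averaged 1235 ± 76.8 FPKM on day 1, 1333 ± 8.47 on day 3 and 1493 ± 33.7 in control. But markers of microglia, oligodendrocyte-lineage, ependymal, mural, neuronal and endothelial cells were present as well. The T and NK cell markers summed to at most 0.161 FPKM in any library, with Cd3e and Cd3g at 0 in all 9.

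Of the 41 genes, 28 had a mean of at least 1 FPKM and were tested, with means over the 9 libraries of 1.46 to 179 FPKM. The 13 below it were Ifit1, Irf7, Usp18, Mx1, Mx2, Oas1a, Oas2, Oasl2, Rsad2, Ifi44, Xaf1, Rtp4 and Iigp1, at 0.0296 to 0.971 FPKM. The Mx GTPases, the Oas synthetases and viperin (Rsad2), all textbook interferon-stimulated genes, were therefore among the lowest in the set. Other interferon-stimulated genes were not: Ifitm3 averaged 114, Ifit2 21.4, Bst2 14.4, Ifit3 11.0 and Isg15 2.59 FPKM over the 9 libraries. The highest of the set was B2m, the class I light chain, at 206 ± 4.15 FPKM on day 1, 170 ± 5.17 on day 3 and 161 ± 2.49 in control.

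**Figure D1:**
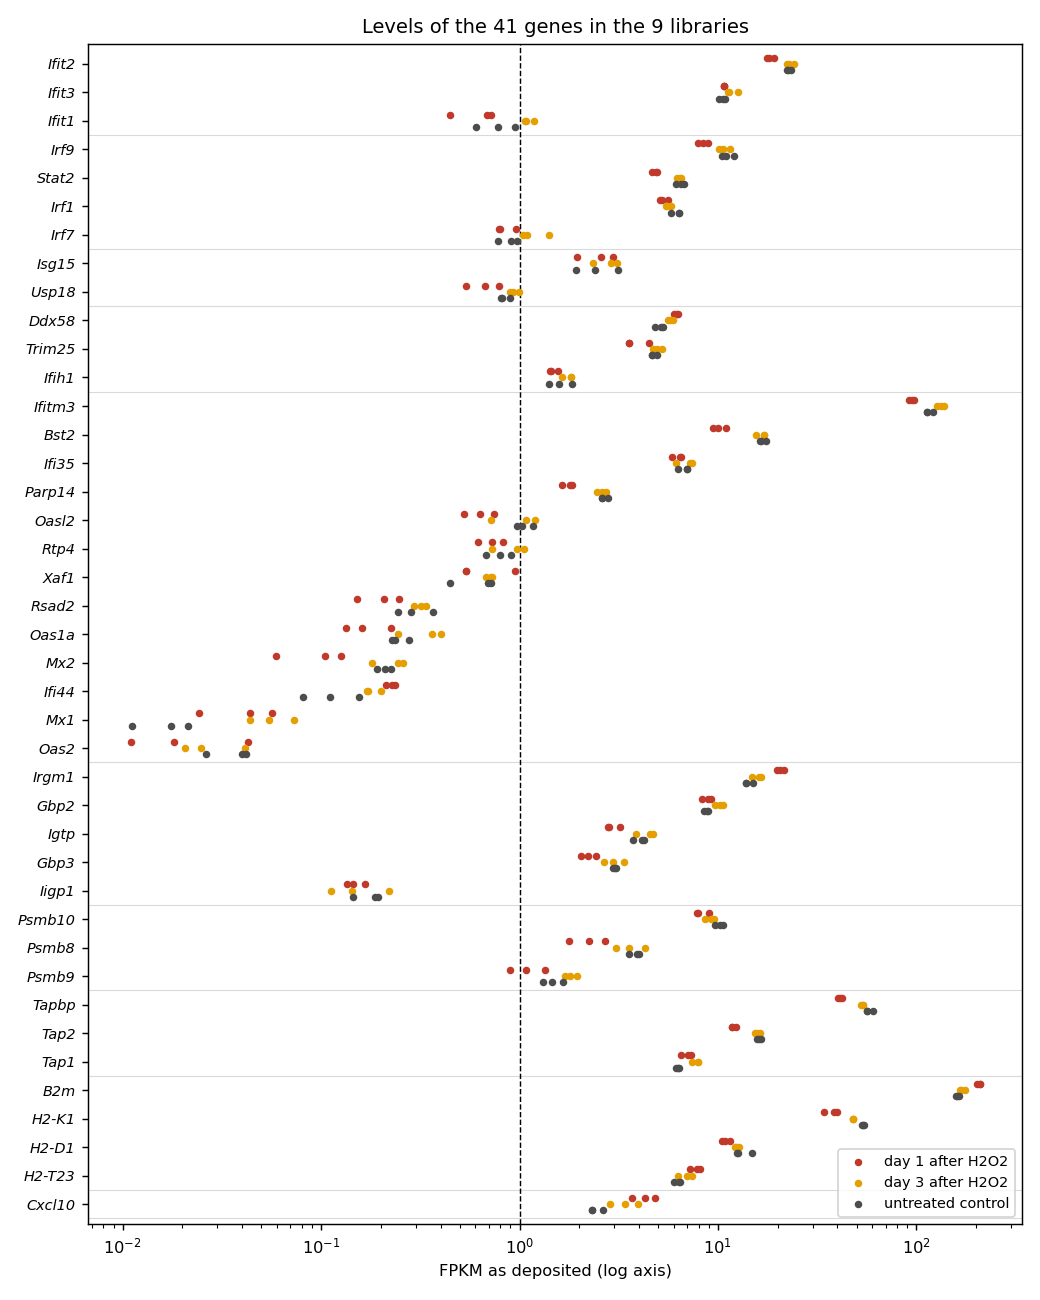
Deposited FPKM (log axis) of the 41 genes, ordered by role, in each library of day 1, day 3 and control, 3 points a group; the dashed line marks 1 FPKM. B2m (159 to 209 FPKM) and Ifitm3 (91.5 to 138 FPKM) stand highest, and Mx1, Mx2, Oas1a and Oas2 lie left of the line in every library.

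On day 1 the set split, with more genes down than up. Against control 6 of the 28 tested members rose (21.4%, where 31.1% of all genes tested rose) and 17 fell (60.7%, where 31.1% of all genes fell), so that 23 were called where 62.2% of all genes were. The risers were Cxcl10, Irgm1, B2m, H2-T23, Ddx58 and Tap1, and 0 of the 28 moved by as much as 1 on the log2 scale. The median log2 change of the 28 was -0.26, against -0.00 for all genes tested. The day 1 and control libraries did not overlap for 22 of the 28, where 66.1% of all genes did not overlap. Leaving out a library in turn gave 5 to 6 rises and 15 to 17 falls. The calls it cost were Tap1 (adjusted p = 0.0527 without day 1 replicate 2 and 0.0502 without day 1 replicate 3), Trim25 and Psmb9, the last lost without control replicate 2 or 3, day 1 replicate 1 or 3, or day 3 replicate 3 (adjusted p = 0.0510 to 0.140).

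Most of these falls were not seen on day 3. Against control on day 3, 6 of 28 members rose (7.37% of all genes tested did) and 2 fell (6.45% of all genes), which makes 8 calls where 13.8% of all genes were called, while 20 were not called. The libraries did not overlap for 12 of 28, where 30.3% of all genes did not overlap. The median log2 change was 0.06, against 0.01 for all genes. Directly compared, 16 members were higher on day 3 than on day 1 (27.9% of all genes were) and 4 were lower (28.4% of all genes), 20 calls where 56.2% of all genes were called. The day 3 and day 1 libraries did not overlap for 22 of 28, where 61.8% of all genes did not overlap. Of the 17 that fell on day 1, 14 were higher on day 3 than on day 1, where 78.0% of all genes that fell on day 1 were. Of the 6 that rose, Cxcl10, Irgm1, B2m and H2-T23 were lower on day 3 than on day 1, where 79.3% of all genes that rose were. Both comparisons use the same day 1 libraries, so these counts are not independent and say nothing particular to the set. The calls of H2-T23 (lost without day 1 replicate 1 or 2 or day 3 replicate 3; adjusted p = 0.0797 to 0.145) and Cxcl10 (lost without day 1 replicate 2 or 3 or day 3 replicate 1 or 2; 0.0656 to 0.121) rested on single libraries, and only Irgm1 and B2m of the 4 kept theirs on leaving out any library. Among the 16 higher, Tap1 lost its call without any control library, day 1 replicate 1 or 3, or day 3 replicate 1 or 2 (limma, adjusted p = 0.0507 to 0.182). That call was also lost with no filter, quantile normalization, the replicate block or limma-voom. The day 3 calls against control are fragile: the number higher than control was 3 without control replicate 1 or day 3 replicate 1, 4 without control replicate 3 or day 1 replicate 2, and 5 to 6 otherwise, and the number lower was 0 to 1. Gbp2, Ifitm3 and Tap1 kept their day 3 call against control without any one library.

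**Figure D2:**
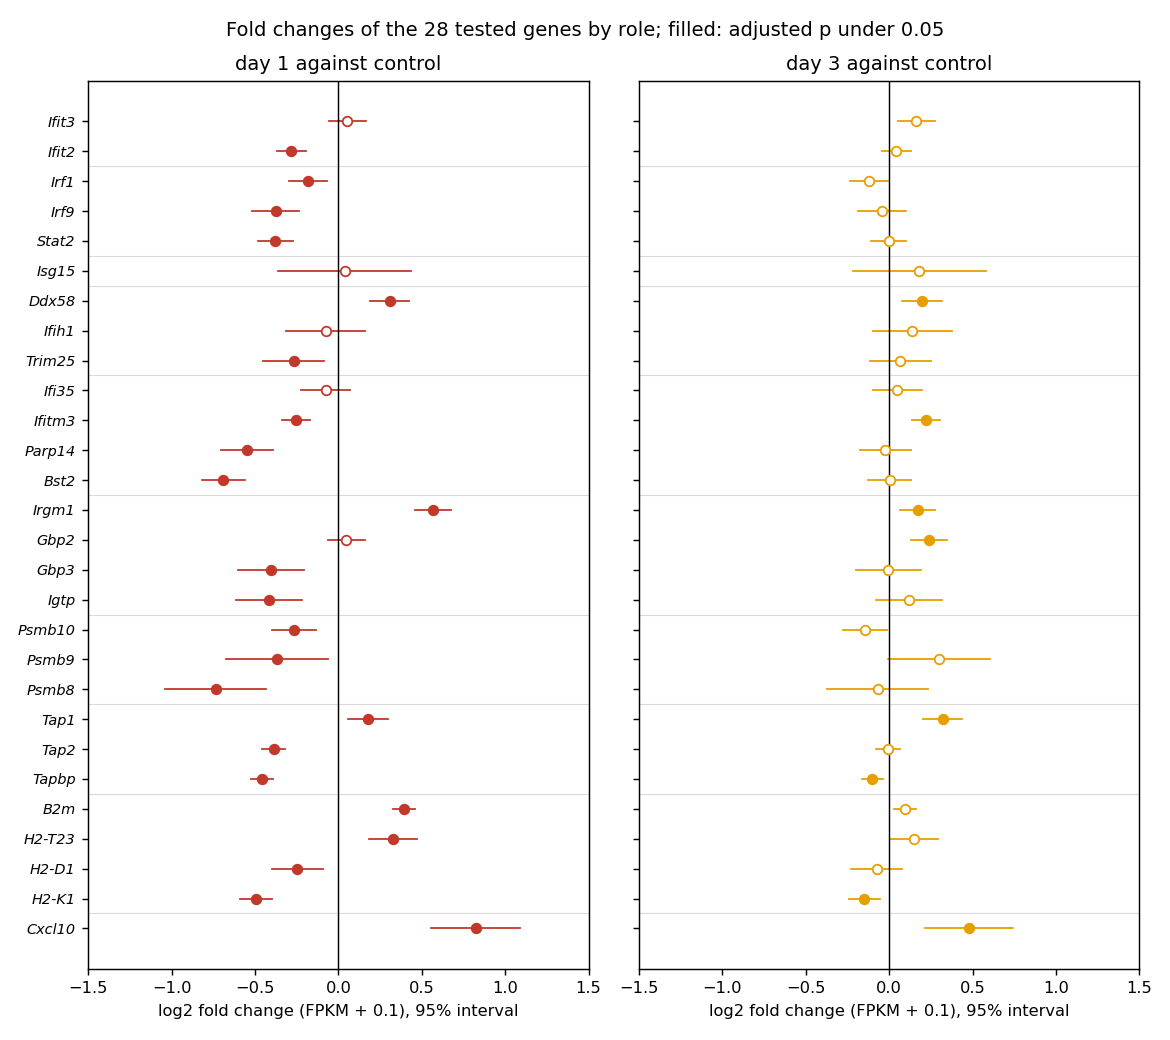
Log2 fold changes (FPKM + 0.1) with 95% intervals for the 28 tested genes by role, on day 1 and on day 3 against control; filled points have an adjusted p under 0.05. On day 1, 17 filled points lie left of 0 and 6 right of it, and on day 3 against control 2 lie left and 6 right.

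Markers of several cell types moved alongside. For comparison, of all genes tested 31.1% rose and 31.1% fell on day 1. On day 3 against control 7.37% were higher and 6.45% lower. Summed FPKM of 18 microglia markers was 165 to 181 on day 1, 322 to 406 on day 3 and 380 to 419 in control. Of the 17 tested, 16 fell on day 1 (median log2 change of the 17: -1.29), Tmem119 rose, and none was called on day 3 against control. Among these, the complement gene C1qa averaged 19.1 ± 1.13 FPKM on day 1, 54.4 ± 8.25 on day 3 and 60.5 ± 4.89 in control, and the leukocyte gene Ptprc 0.827 ± 0.114, 1.75 ± 0.286 and 1.74 ± 0.0400 in the same groups. The 9 astrocyte markers summed to 2049 to 2312 FPKM on day 1, 2546 to 2581 on day 3 and 2772 to 2841 in control, with 6 lower and 2 higher on day 1. The 12 oligodendrocyte-lineage markers summed to 357 to 382, 429 to 462 and 522 to 551 FPKM in the same groups, and of the 10 tested 9 fell on day 1 and 8 were lower than control on day 3. The 5 ependymal markers summed to 74.1 to 83.0, 115 to 131 and 126 to 140 FPKM, and all 4 tested fell on day 1 (median log2 change -0.85). Of the 5 tested fibroblast and mural markers, 2 rose and 2 fell on day 1. In bulk RNA, fewer cells of a type and less RNA per cell cannot be told apart. The part of these shifts in the results of every group of genes below was not tested.

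Among the transcription factors that carry the interferon signal, all 3 tested members fell on day 1, where 31.1% of all genes tested fell. Irf9, the DNA-binding partner of STAT2, had 7.89, 8.88 and 8.42 FPKM on day 1, 10.6, 11.5 and 10.1 on day 3 and 10.5, 11.0 and 12.01 in control. Every day 1 library lay below every control library, while day 3 and control overlapped. The fall on day 1 was 1.30-fold (adjusted p = 0.000458), and Stat2, its partner, fell by the same factor, 1.30-fold (adjusted p = 4.56e-05). Both were higher on day 3 than on day 1 (Irf9 1.26-fold, Stat2 1.30-fold; adjusted p = 0.00126 and 6.60e-05). Irf1, a factor induced chiefly by interferon gamma, fell 1.14-fold on day 1 (adjusted p = 0.0105) and stood at 5.32 ± 0.235 FPKM on day 1, 5.61 ± 0.146 on day 3 and 6.19 ± 0.328 in control. Its day 3 level was not called different from either of the other groups. Irf7, which amplifies type I interferon production, was among the genes below 1 FPKM.

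The IFIT proteins bind foreign or viral RNA, and Ifit2 was the highest of the 3. It had 19.1, 18.001 and 17.6 FPKM on day 1, 24.3, 22.4 and 22.9 on day 3 and 23.2, 22.6 and 22.4 in control. The day 1 libraries were all lower than the rest, by 1.22-fold against control (adjusted p = 0.000109), and day 3 overlapped control. Ifit3 was not called on either day against control, at 10.7 ± 0.0530 FPKM on day 1, 11.7 ± 0.746 on day 3 and 10.6 ± 0.372 in control. Reads of Ifit3 may be shared with its close copy Ifit3b, as no counting rule is stated.

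Isg15, a ubiquitin-like protein that is attached to other proteins during the antiviral response, was not called in any comparison. It had 2.57, 2.94 and 1.95 FPKM on day 1, 2.34, 3.11 and 2.88 on day 3 and 1.92, 2.41 and 3.15 in control, and the 3 groups overlapped. The interval of its day 1 change on the log2 scale ran from -0.36 to 0.43. Usp18, the protease that removes ISG15, was below 1 FPKM.

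The cytosolic RNA sensors did not move as one. Ddx58, which encodes the sensor RIG-I, had 5.99, 6.20 and 6.32 FPKM on day 1, 5.75, 5.94 and 5.63 on day 3 and 5.14, 5.31 and 4.80 in control. Both peroxide groups lay above control without overlap, by 1.24-fold on day 1 (adjusted p = 0.000514) and 1.15-fold on day 3 (adjusted p = 0.0351). The day 3 call was lost without any of 6 libraries (control replicates 1 and 3, day 1 replicate 2 and each day 3 replicate; adjusted p = 0.0526 to 0.111). Trim25, the ubiquitin ligase that activates RIG-I, fell 1.20-fold on day 1 (adjusted p = 0.0160), a call lost without control replicate 1, day 1 replicate 1 or day 1 replicate 3 (0.0579 to 0.0641). Ifih1, which encodes the related sensor MDA5, stood at 1.48 ± 0.0715 FPKM on day 1, 1.75 ± 0.105 on day 3 and 1.61 ± 0.222 in control and was not called.

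Among the antiviral effectors, 3 of the 4 tested genes fell on day 1, where 31.1% of all genes tested fell. Bst2 encodes tetherin, which holds budding virus particles on the cell surface. It had 9.95, 10.9 and 9.42 FPKM on day 1, 15.5, 17.01 and 17.1 on day 3 and 17.4, 16.5 and 16.2 in control. The day 1 libraries were far below all others, 1.61-fold lower than control [1.47, 1.76] (adjusted p = 2.82e-06), and day 3 overlapped control. Parp14, an ADP-ribosyltransferase, followed the same course at lower levels, with 1.83, 1.80 and 1.65 FPKM on day 1, 2.74, 2.47 and 2.6007 on day 3 and 2.61, 2.80 and 2.61 in control. It fell 1.46-fold on day 1 [1.31, 1.63] (adjusted p = 6.03e-05). Ifi35 was not called, at 6.26 ± 0.363 FPKM on day 1, 6.93 ± 0.670 on day 3 and 6.75 ± 0.402 in control.

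Ifitm3, a membrane protein that blocks virus entry by fusion, was called below control on day 1 and above it on day 3. It had 95.5, 96.7 and 91.5 FPKM on day 1, 128, 138 and 134 on day 3 and 113, 113 and 121 in control, with no overlap between any of the 3 groups. It fell 1.19-fold on day 1 (adjusted p = 0.000173) and rose 1.16-fold on day 3 [1.10, 1.23] (adjusted p = 0.00401), and day 3 was 1.39-fold above day 1 [1.31, 1.47] (adjusted p = 2.89e-06). No other member was called in opposite directions on the 2 days. The 7 fibroblast and mural markers had the same order of summed levels, 48.4 to 50.4 FPKM on day 1, 82.8 to 86.6 on day 3 and 71.0 to 75.7 in control, also without overlap. The single markers did not all follow the sum: on day 1 Dcn and Lum fell, while Anpep and Pdgfrb rose. The part of these markers in the result for Ifitm3 was not tested.

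**Figure D3:**
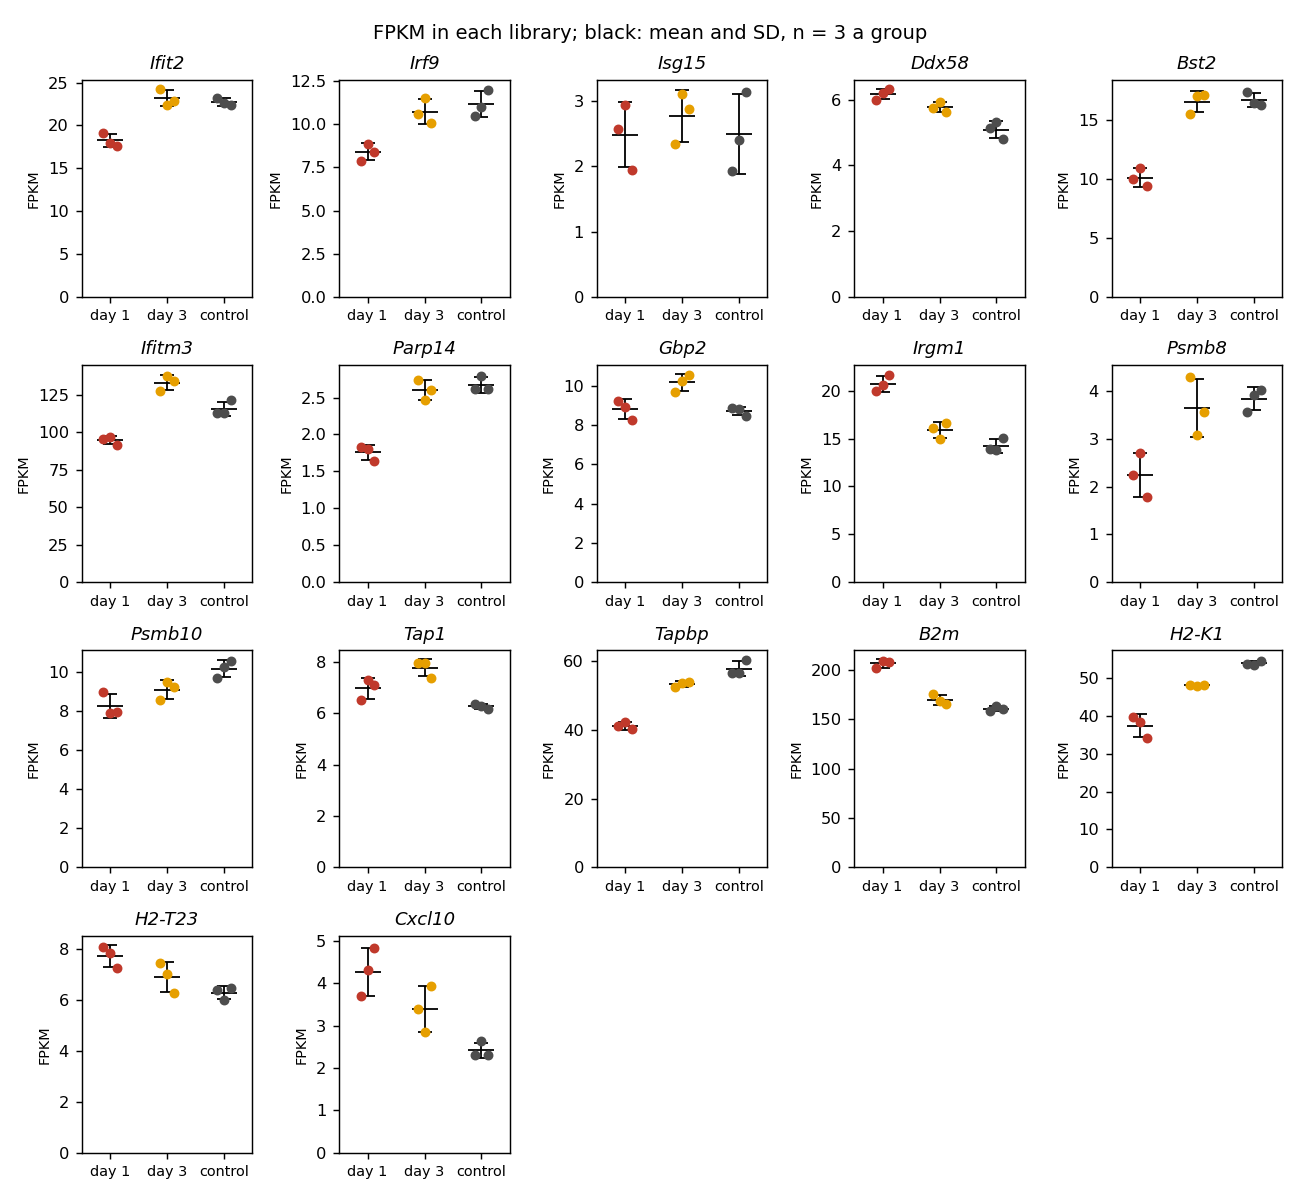
Deposited FPKM in each library (points) with mean and SD in black (n = 3), for members named in the text, with day 1, day 3 and control from left to right and axes that start at 0. Ifitm3 lies at 91.5 to 96.7 FPKM on day 1, 128 to 138 on day 3 and 113 to 121 in control, while Bst2 is low on day 1 alone.

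Interferon-inducible GTPases attack vacuoles that hold pathogens, and in mouse the family includes the guanylate-binding proteins (Gbp) and the immunity-related GTPases (Irg). Irgm1, a regulator of the other Irg proteins and of autophagy, had 19.95, 20.6 and 21.6 FPKM on day 1, 16.1, 14.9 and 16.6 on day 3 and 13.9, 13.8 and 15.1 in control. All day 1 libraries lay above all others, 1.48-fold over control [1.38, 1.60] (adjusted p = 2.65e-06), whereas day 3 overlapped control. Its day 3 call, 1.13-fold higher (adjusted p = 0.0404), was lost without control replicate 1 or 2, day 1 replicate 2, or day 3 replicate 1 or 3 (0.0569 to 0.138). Igtp, an effector of the same Irg family, went the other way on day 1, 1.33-fold lower (adjusted p = 0.00198), at 2.94 ± 0.219 FPKM on day 1, 4.36 ± 0.443 on day 3 and 4.04 ± 0.268 in control. Gbp3 fell 1.32-fold on day 1 (adjusted p = 0.00247). Gbp2 moved late: it had 9.25, 8.94 and 8.28 FPKM on day 1, 9.69, 10.3 and 10.6 on day 3 and 8.87, 8.80 and 8.47 in control. Day 1 overlapped control, and day 3 lay above both, by 1.18-fold over control [1.09, 1.27] (adjusted p = 0.0101).

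The immunoproteasome subunits Psmb8, Psmb9 and Psmb10 replace the constitutive subunits Psmb5, Psmb6 and Psmb7 and change which peptides are cut for class I. All 3 fell on day 1 (31.1% of all genes tested did) and none was called on day 3 against control (13.8% of all genes were). Psmb8 had 2.25, 2.701 and 1.78 FPKM on day 1, 4.28, 3.08 and 3.56 on day 3 and 3.56, 3.92 and 4.02 in control. The day 1 libraries were the lowest 3, 1.67-fold below control [1.35, 2.05] (adjusted p = 0.000806), the largest fall among the tested members. Psmb10 had 8.99, 7.89 and 7.97 FPKM on day 1, 8.58, 9.50 and 9.23 on day 3 and 9.70, 10.3 and 10.6 in control, a day 1 fall of 1.20-fold (adjusted p = 0.00264). Psmb9 averaged 1.10 ± 0.223 FPKM on day 1, 1.81 ± 0.129 on day 3 and 1.47 ± 0.172 in control, and its day 1 libraries overlapped control. Its day 1 call rested on single libraries, as given above, and was also lost with no filter on low values (adjusted p = 0.0636), with only the 6 libraries compared (0.0687), with limma-voom on the recovered reads (0.163) and with quantile normalization (0.276), which brought the log2 change to -0.17, against -0.37.

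Set against their constitutive counterparts, which are far more abundant per length, Psmb8 and Psmb10 made up less on day 1, and Psmb9 did not separate from control. The ratio of Psmb8 to Psmb5 in FPKM was 0.0372, 0.0471 and 0.0307 on day 1, 0.0698, 0.0514 and 0.0608 on day 3 and 0.0572, 0.0659 and 0.0597 in control. The ratio of Psmb10 to Psmb7 was 0.0895, 0.0777 and 0.0806 on day 1, 0.102, 0.106 and 0.104 on day 3 and 0.113, 0.114 and 0.117 in control. Day 1 lay below control without overlap for both, and for Psmb10 to Psmb7 day 3 lay between. The ratio of Psmb9 to Psmb6 was 0.0140, 0.0212 and 0.0173 on day 1, 0.0303, 0.0262 and 0.0290 on day 3 and 0.0207, 0.0212 and 0.0236 in control. Here day 1 overlapped control, and day 3 lay wholly above it. Psmb7 itself rose 1.15-fold on day 1 (adjusted p = 0.000152), while Psmb5 and Psmb6 were not called, although 1 of them was called lower without control replicate 1 or control replicate 2.

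The peptide transporter is a dimer of TAP1 and TAP2, and the genes of its subunits moved apart on day 1. Tap1 had 6.52, 7.32 and 7.09 FPKM on day 1, 7.98, 7.97 and 7.40 on day 3 and 6.37, 6.30 and 6.18 in control. All peroxide libraries lay above all control libraries, by 1.13-fold on day 1 [1.04, 1.23] (adjusted p = 0.0141) and 1.25-fold on day 3 [1.15, 1.36] (adjusted p = 0.00342). Tap2 fell 1.31-fold on day 1 (adjusted p = 2.29e-06) and was not called on day 3, at 11.99 ± 0.338 FPKM on day 1, 15.8 ± 0.384 on day 3 and 16.1 ± 0.397 in control. The ratio of Tap1 to Tap2 in FPKM was 0.555, 0.591 and 0.599 on day 1, 0.493, 0.504 and 0.479 on day 3 and 0.407, 0.383 and 0.382 in control, so the 3 groups did not overlap. Tapbp, which encodes tapasin, had 41.01, 42.2 and 40.1 FPKM on day 1, 52.4, 53.6 and 53.9 on day 3 and 56.6, 56.6 and 60.2 in control. It fell 1.37-fold on day 1 (adjusted p = 3.84e-07) and 1.07-fold on day 3 [1.02, 1.12] (adjusted p = 0.0485), and the day 3 call was lost on leaving out any library except control replicate 2 or day 3 replicate 2 (0.0530 to 0.168).

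These genes are neighbours in the MHC on mouse chromosome 17, where 8 of the 41 lie. In RefSeq coordinates on GRCm38.p6, Psmb9 (minus strand, 34182030 to 34187330) is followed after 225 bases by Tap1 (plus strand, 34187556 to 34197225), after a further 969 bases by Psmb8 (34198195 to 34201454) and after 3024 bases by Tap2 (34204479 to 34216321). On day 1 Tap1 was called higher while its neighbours on both sides, Psmb9 and Psmb8, and Tap2 beyond them were called lower; the calls of Tap1 and Psmb9 are those that single libraries decided.

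The class I chains also split. B2m, the light chain shared by all class I molecules, had 201.6, 209 and 208 FPKM on day 1, 175, 169 and 165 on day 3 and 159, 164 and 160 in control. Day 1 was highest without overlap, 1.31-fold over control [1.26, 1.37] (adjusted p = 1.01e-06). On day 3 it was 1.07-fold over control and missed the threshold (adjusted p = 0.0593, and 0.0400 without day 3 replicate 3). H2-K1, the classical heavy chain K, had 39.7, 38.3 and 34.1 FPKM on day 1, 48.1, 47.9 and 47.9 on day 3 and 53.6, 53.4 and 54.5 in control. It fell 1.41-fold on day 1 [1.32, 1.51] (adjusted p = 2.99e-06) and 1.11-fold on day 3 [1.04, 1.18] (adjusted p = 0.0416), and the 3 groups did not overlap. The day 3 call was lost without any of 7 libraries (0.0551 to 0.118), only day 1 replicates 1 and 3 leaving it in place.

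H2-D1, the second classical heavy chain in the set, fell 1.19-fold on day 1 (adjusted p = 0.0104) and averaged 10.9 ± 0.493 FPKM on day 1, 12.4 ± 0.258 on day 3 and 13.3 ± 1.33 in control. H2-T23 encodes Qa-1, a nonclassical heavy chain read by receptors of NK and some T cells. It had 8.09, 7.85 and 7.25 FPKM on day 1, 7.43, 7.01 and 6.28 on day 3 and 6.39, 6.01 and 6.46 in control, a rise of 1.25-fold on day 1 [1.13, 1.38] (adjusted p = 0.00133). B2m exceeded the 3 heavy chains summed by 3.44, 3.69 and 3.95 times on day 1, 2.57, 2.51 and 2.48 times on day 3 and 2.12, 2.27 and 2.18 times in control. These ratios did not overlap between groups and were highest on day 1. Class I heavy chains are near-identical over long stretches, and the sources used here do not say how shared reads were counted, so levels of single heavy chains are uncertain.

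Cxcl10, a chemokine that draws CXCR3-bearing T and NK cells, showed the largest rise of the tested members. It had 3.69, 4.31 and 4.82 FPKM on day 1, 3.39, 2.85 and 3.93 on day 3 and 2.31, 2.63 and 2.31 in control. Both peroxide groups lay above control without overlap, by 1.77-fold on day 1 [1.47, 2.12] (adjusted p = 0.000143) and 1.39-fold on day 3 [1.16, 1.68] (adjusted p = 0.0239). The day 3 call was lost without control replicate 1, control replicate 3, day 3 replicate 1 or day 3 replicate 3 (0.0687 to 0.0851).

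The 13 genes below 1 FPKM were read by their counts, since the deposited FPKM give back whole reads. Mx1 had 4, 2 and 3 reads on day 1, 4, 8 and 6 on day 3 and 1, 2 and 2 in control, and Oas2 had 4, 2 and 1, then 3, 3 and 6, then 5, 4 and 5 reads in the same groups. These are at or near the limit of detection and allow no statement on change. The other 11 passed a mean of 10 reads and were tested with limma-voom on the recovered reads, an alternative added after the data were seen. For comparison, limma-voom on the 12611 genes averaging at least 1 FPKM called 3954 higher and 3916 lower on day 1. On day 3 against control it called 1319 higher and 1143 lower. These counts are over those 12611 genes, not over all genes with a mean of 10 reads. Oasl2, an oligoadenylate synthetase-like protein, had 47, 65 and 38 reads on day 1, 69, 138 and 124 on day 3 and 98, 117 and 115 in control, a day 1 log2 change of -0.68 (adjusted p = 0.00476, and 0.0242 in the limma fit on FPKM with no filter). Mx2 had 6, 4 and 7 reads on day 1, 18, 23 and 16 on day 3 and 14, 21 and 16 in control, a log2 change of -1.09 (adjusted p = 0.0116, and 0.0122 with no filter). Ifi44 was higher on day 1, with 16, 17 and 15 reads on day 1, 15, 21 and 18 on day 3 and 7, 17 and 10 in control from deeper libraries, a log2 change of 0.99 (adjusted p = 0.00834, and 0.00664 with no filter). On day 3 Ifit1 alone among the 11 was called against control, with 86, 114 and 104 reads on day 3 and 48, 79 and 79 in control, a log2 change of 0.54 (adjusted p = 0.0258). That call was absent from the FPKM fit with no filter (adjusted p = 0.178). On day 3 against day 1, limma-voom called Ifit1, Mx2, Oas1a, Oasl2, Rsad2 and Irf7 higher (adjusted p = 0.000938 to 0.0499). Limma-voom on the 12611 genes called 3521 higher and 3622 lower between these days, and in the main fit 27.9% of all genes tested were higher. In the limma fit with no filter Rsad2 (adjusted p = 0.0521) and Irf7 (0.0524) missed the threshold, while Usp18 passed it (0.0302).

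The promoters were searched for the ISRE core, GAAA followed by any 2 bases and a second GAAA, in the 250 bases before each RefSeq start on GRCm38.p6, on both strands. At least 1 match was present for 14 of the 33 members with a window (42.4%), against 3.46% of the 27025 genes with a window. A match is a description of the letters, not a site shown to be bound. Members with the motif were found on both sides: 4 of 6 that rose on day 1, 4 of 15 that fell, 3 of 5 that were not called and 3 of 7 that were not tested. Shown here are the windows of the 2 members with the largest rise and the 2 with the largest fall on day 1 that hold it, 5′ to 3′ on the gene's strand, with the motif in capitals.
Cxcl10 (rose on day 1; chr5:92348890-92349139, minus strand): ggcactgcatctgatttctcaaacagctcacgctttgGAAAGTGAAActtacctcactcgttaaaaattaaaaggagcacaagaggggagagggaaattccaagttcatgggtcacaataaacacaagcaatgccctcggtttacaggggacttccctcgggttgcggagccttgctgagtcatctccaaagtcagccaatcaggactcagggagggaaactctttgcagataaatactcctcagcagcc
Irgm1 (rose on day 1; chr11:48871421-48871670, minus strand): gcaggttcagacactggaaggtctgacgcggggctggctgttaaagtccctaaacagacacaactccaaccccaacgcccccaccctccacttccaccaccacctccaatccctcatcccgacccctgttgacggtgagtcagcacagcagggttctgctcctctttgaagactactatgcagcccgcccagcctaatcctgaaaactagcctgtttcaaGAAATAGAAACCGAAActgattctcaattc
Bst2 (fell on day 1; chr8:71537473-71537722, minus strand): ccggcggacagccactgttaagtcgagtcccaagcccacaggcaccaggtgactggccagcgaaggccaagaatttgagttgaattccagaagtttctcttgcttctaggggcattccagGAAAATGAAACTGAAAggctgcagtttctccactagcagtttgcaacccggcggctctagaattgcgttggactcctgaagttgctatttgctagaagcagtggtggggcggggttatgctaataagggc
Igtp (fell on day 1; chr11:58199306-58199555, plus strand): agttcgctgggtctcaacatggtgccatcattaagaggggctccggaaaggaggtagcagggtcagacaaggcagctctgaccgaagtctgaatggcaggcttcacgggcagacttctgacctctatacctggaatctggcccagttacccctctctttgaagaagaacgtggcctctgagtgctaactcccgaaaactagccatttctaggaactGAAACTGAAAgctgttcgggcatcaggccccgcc
In Bst2 and Irgm1 the capitals hold 2 overlapping matches, which begin 130 and 124 bases before the start in Bst2 and 30 and 24 bases before it in Irgm1. The match begins 34 bases before the start in Igtp and 213 bases before it in Cxcl10. The bases after the start were sought in the gene's transcripts in another annotation, GENCODE. They were found for Cxcl10, Irgm1 and Igtp but not for Bst2, so the start of Bst2 and its distances are less certain. Irgm1 and Igtp, both Irg genes on chromosome 11 with the motif close to the start, thus differed in direction on day 1. The GAS core TTCNNNGAA, which can overlap the ISRE core, was found in 6 of the 33 members (18.2%, against 8.13% of all genes), in 5 of 15 that fell and 0 of 6 that rose. This split rests on few members and was not tested. Parp14 and Tap2, which also fell on day 1, had no window.

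Further genes of the pathway, 121 in 5 lists of which 81 were tested, gave the context of the set. Ifnb1, Ifng, Ifnar1, Tyk2, Ifngr1 and Nlrc5 are named for their roles, after their values were seen. The interferon genes in the lists were barely detected: Ifnb1 had 0 to 4 reads and Ifng 0 to 1 reads in any library. Other interferon genes were not in the lists. The type I receptor genes and the kinase Tyk2 were not called in any comparison, with Ifnar1 at 12.7 ± 0.451 FPKM on day 1, 12.5 ± 0.251 on day 3 and 12.4 ± 0.519 in control. The receptor genes for interferon gamma moved apart on day 1. Ifngr2 rose 1.44-fold (27.8 ± 0.783 FPKM on day 1, 21.7 ± 0.957 on day 3 and 19.7 ± 0.495 in control; adjusted p = 1.01e-06). Ifngr1 fell 1.21-fold (20.2 ± 0.0522 on day 1, 25.0 ± 0.0914 on day 3 and 25.1 ± 1.40 in control; adjusted p = 4.22e-05).

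Of the 20 tested genes in the list of ligands, receptors and signalling, 2 rose and 10 fell on day 1 (median log2 change -0.09), where 31.1% of all genes tested were called in each direction. The largest fall was of Irf8, a factor of the myeloid lineage, at 0.917 ± 0.262 FPKM on day 1, 2.93 ± 0.395 on day 3 and 3.07 ± 0.322 in control (3.11-fold, adjusted p = 1.19e-05), followed by Irf5 (1.64-fold, adjusted p = 0.000104), which is also strong in myeloid cells. On day 1, 16 of 17 tested microglia markers, 9 of 10 oligodendrocyte-lineage markers and 4 of 4 ependymal markers fell as well. The part of these shifts in the falls of Irf8 and Irf5 was not tested. Ikbke, a kinase that acts downstream of nucleic acid sensors, fell 1.23-fold (adjusted p = 0.00282), and the receptor kinase Jak1 rose 1.18-fold (adjusted p = 4.62e-05). On day 3, 3 of the 20 were higher than control (7.37% of all genes were) and 0 lower: Ifngr2 (1.11-fold, adjusted p = 0.0262), Il10rb (1.10-fold, 0.0404) and Jak1 (1.09-fold, 0.0162). The 3 shrank to 0 without control replicate 3 or day 3 replicate 1 and to 1 without control replicate 1 or day 3 replicate 3.

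Of the other interferon-stimulated genes, 4 of 40 tested were higher and 21 lower on day 1 (median log2 change -0.16), where 31.1% of all genes were called in each direction. Ifitm1, a close relative of Ifitm3, fell 2.66-fold (3.66 ± 0.944 FPKM on day 1, 12.5 ± 1.08 on day 3 and 9.95 ± 1.23 in control; adjusted p = 1.35e-05). Cmpk2, a mitochondrial nucleotide kinase, fell 2.18-fold (4.45 ± 0.534, 8.71 ± 0.278 and 9.97 ± 0.434 FPKM in the same groups; adjusted p = 3.00e-07), and Slfn2 fell 2.14-fold (adjusted p = 0.000137). Only 2 of the 4 higher calls, Pml, which builds nuclear bodies, and the peptidase Lap3, held without any one library. Pml was 1.16-fold higher (adjusted p = 0.00442) and Lap3 1.11-fold (adjusted p = 0.00176). Ifi204, 1.31-fold higher (adjusted p = 0.0495), lost its call without any control library, day 1 replicate 1 or 2, or day 3 replicate 1. On day 3, 4 of 40 were higher, near the share of all genes (7.37%; 2 were higher without control replicate 2 or day 3 replicate 1) and 1 was lower (0 to 3 on leaving out a library). Trim21, 1.18-fold higher (adjusted p = 0.0494), lost its call on leaving out any of the 9 libraries, and Ogfr, 1.08-fold lower (adjusted p = 0.0365), on leaving out any but day 1 replicate 2 or 3. Those that kept their call included Pml (1.29-fold, adjusted p = 0.00117) and Ifitm2 (1.12-fold, adjusted p = 0.00681), which, like Ifitm3, had been lower on day 1 (1.11-fold, adjusted p = 0.00140). Between the days, 26 of 40 were higher on day 3 than on day 1 (27.9% of all genes were) and 5 lower (28.4% of all genes).

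**Figure D4:**
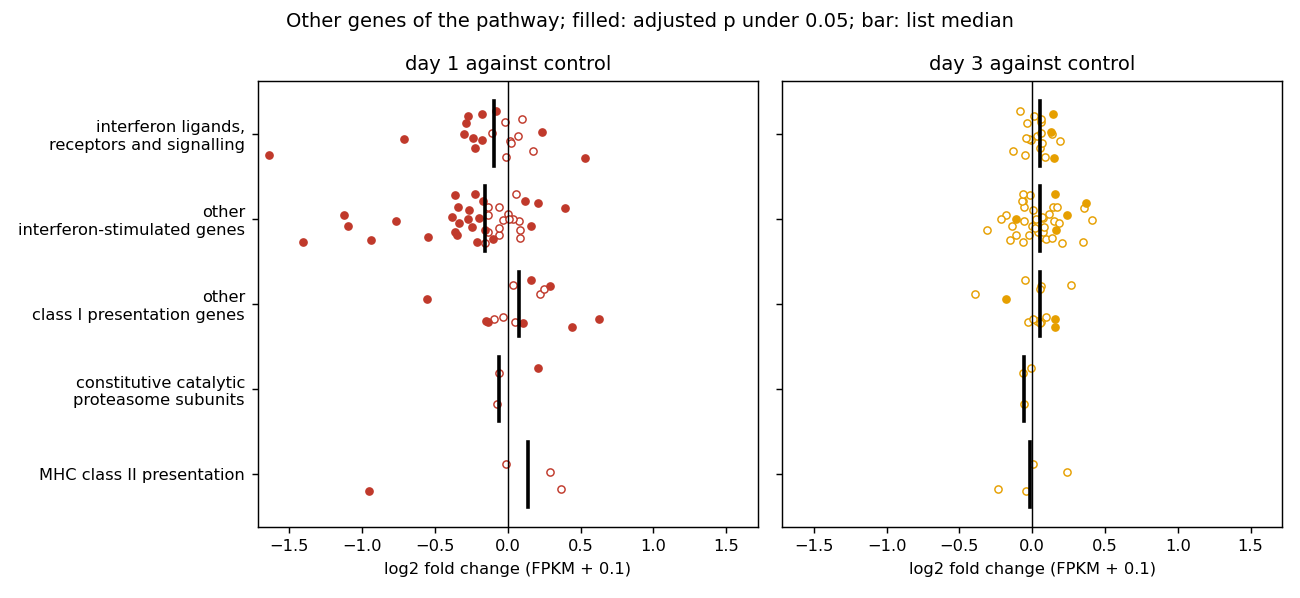
Log2 fold changes (FPKM + 0.1) of the tested genes in the 5 lists of other pathway genes, on day 1 and on day 3 against control; filled points have an adjusted p under 0.05 and bars mark each list's median. The other interferon-stimulated genes show 21 filled points left of 0 and 4 right of it on day 1, against 1 and 4 on day 3.

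In the list of other class I presentation genes, 5 of 14 tested rose on day 1 and 3 fell, or 1 without control replicate 3 or day 1 replicate 1. The share that rose is near that of all genes (31.1% in each direction). The risers included the chaperones that fold and load class I in the endoplasmic reticulum. Pdia3 rose 1.54-fold (269 ± 2.43 FPKM on day 1, 196 ± 2.29 on day 3 and 178 ± 3.11 in control; adjusted p = 1.25e-08), Canx 1.36-fold (adjusted p = 1.51e-07) and Calr 1.22-fold (adjusted p = 5.18e-06). These proteins also fold other glycoproteins. H2-Q4, a further heavy chain, fell 1.47-fold (5.08 ± 0.364 FPKM on day 1, 6.69 ± 0.165 on day 3 and 7.69 ± 0.165 in control; adjusted p = 4.80e-06). Mr1 fell 1.11-fold (adjusted p = 0.0220) and Psme1 1.10-fold (adjusted p = 0.0160); both calls were lost without control replicate 3 or day 1 replicate 1, and that of Mr1 also without day 1 replicate 3. Pdia3 and Canx were still higher on day 3, by 1.11-fold and 1.12-fold (adjusted p = 0.00210 and 0.00219). H2-Q4, 1.13-fold lower on day 3 (adjusted p = 0.0392), lost that call without any control library, day 1 replicate 2, or day 3 replicate 1 or 3. Nlrc5, the transactivator of class I genes, was below 1 FPKM in all 3 groups. Of the MHC class II list, 4 of 8 were tested and 1 fell on day 1, where 31.1% of all genes tested fell. This was the lysosomal protease Ctss (1.94-fold, adjusted p = 5.20e-06), at 15.6 ± 0.987 FPKM on day 1, 29.9 ± 4.06 on day 3 and 31.03 ± 1.84 in control. Most microglia, oligodendrocyte-lineage and ependymal markers fell on day 1 too, and their part in the fall of Ctss was not tested.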

How the data were processed

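The authors deposited FPKM for 25239 genes in 9 libraries, prepared from polyadenylated RNA, per the labels' protocols. The submitters' processing notes name the builds mm10 and GRCm38 and the tools STAR 2.7.3a, cutadapt 2.6, DESeq2 and FastQC 0.12.1. The sources used here do not state how reads were counted, with which annotation, strand setting or filters, so overlapping, antisense and near-identical genes may share reads. The deposited FPKM gave whole reads, to within 0.01 read, for all 20350 genes above 0; replicates differed by more than sampling noise (chi-square per degree of freedom 1.75 to 4.76).

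Libraries were rescaled by the median of ratios (factors 0.976 to 1.02), because Rn45s, a precursor of ribosomal RNA, made up 7.67% to 11.9% of their reads. Genes averaging at least 1 FPKM (12611) were fitted as log2(FPKM + 0.1) by limma 3.58.1 in R 4.3.3, with group as the only term, all 9 libraries and an intensity trend. Tests were two-sided, with Benjamini-Hochberg adjustment over all genes tested. The fit was also run on simulated reads in which a small share of genes changed, on day 1 alone. In these data 62.2% of all genes tested were called on day 1. That run therefore cannot vouch for the scaling or the error rates here. The 41 members, the role groups and the lists of other genes were chosen with earlier results of these data known.

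Values in every library are given for the 4 called members with the largest rise and the 4 with the largest fall against control on each day whose libraries do not overlap, and for the highest member of each role group. Of the other lists, up to 3 called genes per direction per day against control were named. All 41 members and all 121 further genes were found, 3 of the further genes under newer symbols through RefSeq synonyms. Promoter windows and coordinates come from RefSeq on GRCm38.p6. Figures were drawn with matplotlib 3.10.9.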

Additional observations from a re-analysis of the deposited data

Results flagged for a closer look

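Ifitm3 stood out because its libraries moved in opposite directions on the 2 days, and the difference between the days was itself called. It was lower on day 1 than in control (94.6 ± 2.73 FPKM on day 1 and 116 ± 4.83 in control) and higher on day 3 (133 ± 5.13 FPKM), with no overlap between groups. Day 3 exceeded day 1 by 0.48 on the log2 scale (limma, adjusted p = 2.89e-06). Both comparisons against control share the 3 control libraries. The summed fibroblast and mural markers had the same order (48.4 to 50.4 FPKM on day 1, 82.8 to 86.6 on day 3 and 71.0 to 75.7 in control). The single markers did not all follow the sum, as Anpep and Pdgfrb rose on day 1 while Dcn and Lum fell. The part of these markers was not tested.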

How the results depend on the processing

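Of the 84 results on single members (28 genes in 3 comparisons), 65 kept their direction and their side of the threshold in every alternative run, and none changed direction. Counts of called members moved by more than 1.5 times in these cases. With a mean of at least 5 FPKM, so with fewer genes tested, 11 members were lower on day 1. With no filter on low values, 3 were higher and 0 lower on day 3 against control, and 2 were lower on day 3 than on day 1. On day 3 against control the number lower was 1 with only the 6 libraries compared, 0 without the intensity trend, and 0 without the 2 libraries highest in Rn45s, an alternative chosen after seeing the data. Without those libraries 2 were lower on day 3 than on day 1. The cause of these changes was not tested. Leaving out each library gave 5 to 6 higher and 15 to 17 lower on day 1, 3 to 6 higher and 0 to 1 lower on day 3 against control, and 15 to 17 higher and 2 to 4 lower on day 3 against day 1. Libraries with the same replicate number did not deviate together (correlations of -0.08 to 0.11). That gives no sign of a shared replicate effect, but cannot tell whether same-numbered libraries share a culture. A fit with the replicate block gave 1 member lower on day 3 against control, and 6 higher and 17 lower on day 1.

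Without rescaling, 43.3% of all calls on day 1 and 43.4% on day 3 were higher, against 50.04% and 53.3% with it, and the median of all genes on day 1 was -0.03 on the log2 scale. Members below 1 FPKM are limited by depth: Mx1 and Oas2 had at most 8 reads in any library. The controls carry no harvest time in the labels, so time in culture cannot be told apart from exposure.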
